A study of Mus musculus with 8 samples.

Results

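The binding of C/EBPα in the livers of mice that had received an empty vector was compared between the 2 control groups of the study. The comparison used the 2 peak lists titled Trib1_WT and the 2 titled AAV_Null, which are 4 of the 8 chromatin immunoprecipitation sequencing (ChIP-seq) libraries in all. Trib1_WT mice were Trib1 flox/flox animals given 1.5e11 gc (genome copies) of AAV_Null, an adeno-associated virus (AAV) that carries no transgene. AAV_Null mice were C57B/6 wild-type animals given 1e12 gc of the same kind of vector. All mice of the series were 8 to 10 weeks old, carried the strain label C57B/6, ate chow and were fasted for 4 hours before the liver was taken, and the vectors were injected intraperitoneally. Each control has a treated counterpart, which serves here only as a measure of scale: Trib1_LSKO (flox/flox mice, 1.5e11 gc of AAV_Cre) and AAV_Cebpa (wild-type mice, 1e12 gc of a vector for C/EBPα), with 2 lists each. The labels name neither vector promoters nor the sex of the mice, nor do they say that replicates were separate animals, so p-values measure only the spread between libraries.

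C/EBPα is a basic leucine zipper transcription factor that binds DNA as a dimer and is abundant in hepatocytes, where it helps to drive genes of glucose, lipid and nitrogen metabolism and of secreted plasma proteins. Tribbles-1, the product of Trib1, is a pseudokinase that brings C/EBPα to the ubiquitin ligase COP1 for degradation. Mouse liver differs between males and females in gene expression and chromatin, under the control of the sex-specific pattern of growth hormone release. In ChIP-seq, crosslinked DNA fragments bound to a protein are recovered with an antibody and sequenced, and a peak is a place where the fragments pile up. In whole liver, binding in fewer cells and weaker binding per cell cannot be told apart.

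The lists held 53327 and 54691 peaks in Trib1_WT and 46348 and 49052 in AAV_Null. On the autosomes the mean was 52802.5 ± 889 peaks in Trib1_WT and 46539.5 ± 1845 in AAV_Null (SD, n = 2 each), with no overlap between the groups. The exact two-sided permutation test gave p = 0.33, the smallest value possible for 2 against 2 libraries. The depth relative to AAV_Null replicate 1, the shallowest library, was 1.17 in AAV_Null replicate 2, 1.14 in Trib1_WT replicate 1 and 1.93 in Trib1_WT replicate 2. The weakest listed peak held 7 tags in Trib1_WT replicate 1, 11 in Trib1_WT replicate 2 and 8 in each AAV_Null list. Tags are sequenced fragments, and their numbers here are inferred from the step between signal values. Trib1_WT replicate 2 thus stood apart in depth, and counts of sites, rank gaps, shares by strength, the leading windows and shares in the treated lists are given with and without it below. Peak lists hold no transcript levels and no gene annotation of the build mm9 was used, so the hepatocyte and other cell type markers and the genes near a site were not examined.

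The controls differed on the sex chromosomes. Chromosome Y carried 13 and 14 peaks in the Trib1_WT lists and 0 in both AAV_Null lists. These Y peaks fell into 15 sites, of which 12 were called in both Trib1_WT lists, and the highest reached a percentile of 84.3 in replicate 1 and 82.8 in replicate 2 (a percentile is a peak's place by signal in its own list, where 100 is the strongest). The same split ran through the treated lists, with 9 and 12 Y peaks in Trib1_LSKO and 0 in both AAV_Cebpa lists. On chromosome X the share of peaks was higher in AAV_Null, while the number of peaks overlapped. This chromosome held 2.14% and 2.28% of the peaks in Trib1_WT (1140 and 1246) and 2.40% and 2.46% in AAV_Null (1113 and 1208). At the 679 X sites called in all 4 control lists, the median percentile among all common sites was 27.2 and 27.0 in Trib1_WT and 34.0 and 34.9 in AAV_Null, while that of the autosomal sites lay between 50.0 and 50.7 in every list. In the number of Y peaks, the share of X peaks and the X percentile the groups did not overlap. The exact two-sided permutation test gave p = 0.33 for each, again the lower limit. Genotype, vector dose, experiment and the presence of chromosome Y signal all changed together between the control groups and cannot be told apart. The results that follow are therefore restricted to the 19 autosomes.

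**Figure D1:**
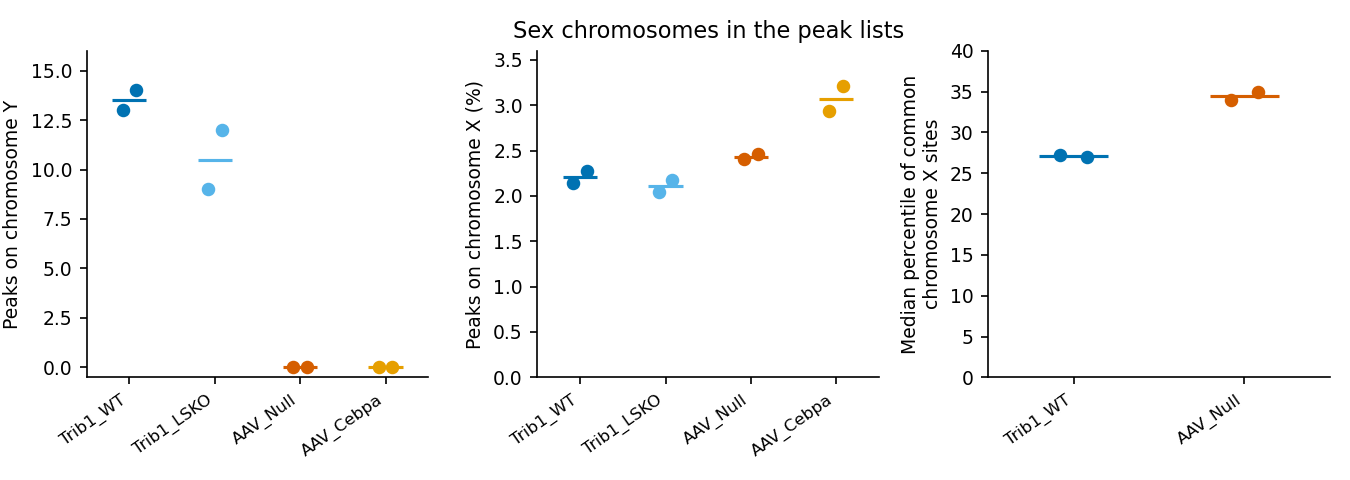
Number of peaks on chromosome Y (left), percent of peaks on chromosome X (middle) and median percentile of common chromosome X sites among all common sites (right), 1 point per library with a line at the group mean (n = 2). Y peaks are listed in the 4 libraries from flox/flox mice and in none of the 4 from wild-type mice, and the X values of AAV_Null lie above those of Trib1_WT.

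Most autosomal sites called in both lists of one control were also called in both lists of the other. Joining peaks of the 4 lists wherever they overlapped by 1 bp or more turned 203418 peaks into 75755 sites with a median width of 217 bp, 73895 of them autosomal. Each list contributed at most 1 peak to a site. All 4 lists shared 31220 autosomal sites, 42.2% of the total (95% Wilson interval 41.9% to 42.6%, which like all intervals here covers counting of sites only). Of the 43148 autosomal sites called in both Trib1_WT lists, 72.4% were in all 4, and of the 36956 called in both AAV_Null lists, 84.5%. A further 9094 sites were in 3 lists and 20640 (27.9%) in a single list. Only 4371 sites had 1 list of each group.

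The common sites were spread over all autosomes. The share of a chromosome's sites that was common ran from 39.7% on chromosome 14 to 44.5% on chromosome 19, with a median of 42.4%. Neighbouring common sites lay a median of 18077 bp apart (interquartile range 6183 to 54955 bp), and 4.67% of these gaps were 1 kb or shorter. Windows of 1 Mb with any common site held a median of 12 (interquartile range 5 to 22). The densest held 70 of them, on chromosome 8 from 129 to 130 Mb, followed by chromosome 11 from 120 to 121 Mb with 61 and chromosome 16 from 24 to 25 Mb with 59. In these 3 windows 108, 85 and 85 sites were called in both lists of either control. Of these, 9, 6 and 12 were particular to Trib1_WT and 5, 4 and 1 to AAV_Null. Over all such autosomal sites, 12.6% were particular to Trib1_WT and 4.89% to AAV_Null.

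The 5 common sites with the highest mean percentile over the 4 control lists are given as a description, since this choice puts them high in every list. The strongest common site, on chromosome 1 from 90175746 to 90175967 (mm9, 1-based, as all positions here), ranked 1 in each of the 4 control lists and also in each of the 4 treated lists. It held 357 and 383 tags in Trib1_WT and 363 and 381 in AAV_Null. Over the 8 lists the highest tag count ran only from 328 to 397, while relative depth ran from 1 to 2.27. Near-equal tag counts at the top of the lists therefore do not show equal binding. Whether a ceiling limits them was not tested. A second site nearby, 90174049 to 90174260, ranked 4 and 3 in Trib1_WT and 3 and 2 in AAV_Null. The site on chromosome 6 from 138088544 to 138088756 ranked 3 and 4 in Trib1_WT and 4 in both AAV_Null lists. That on chromosome 2 from 68634183 to 68634399 ranked 5 and 10 in Trib1_WT and 2 and 3 in AAV_Null. In the treated lists this site ranked 57 and 12 in Trib1_LSKO and 22 and 208 in AAV_Cebpa. The fifth, on chromosome 12 from 8439756 to 8439964, ranked 14 and 17 in Trib1_WT and 5 and 4 in AAV_Null.

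**Figure D2:**
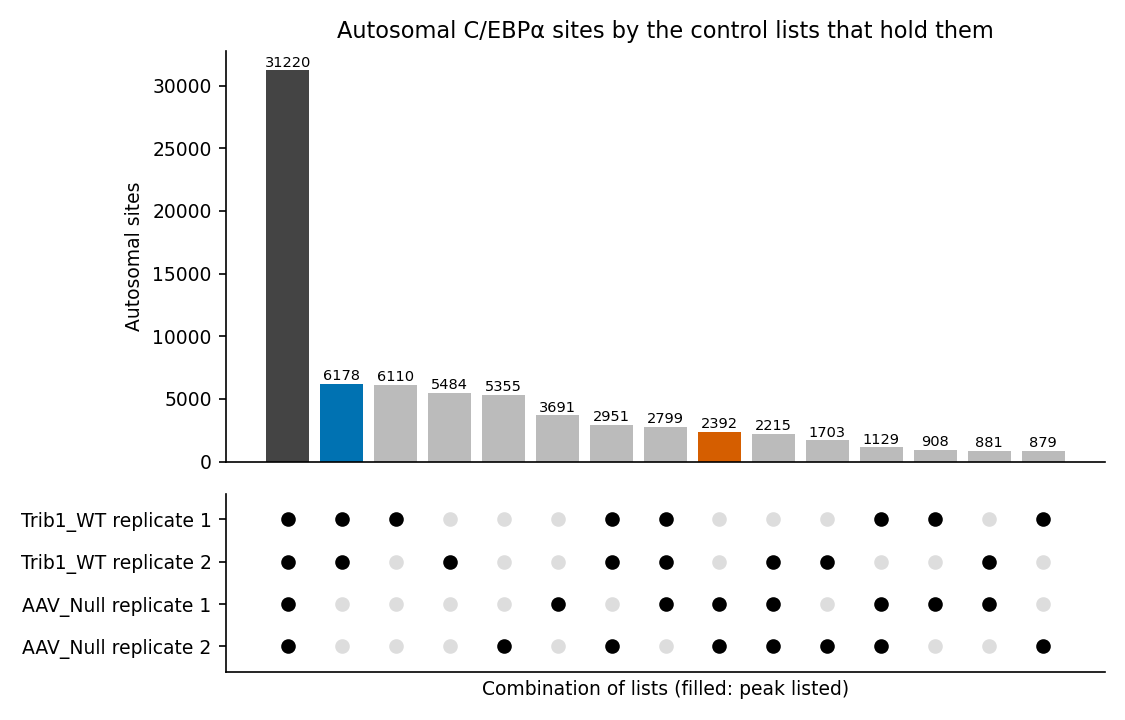
Autosomal sites (vertical axis) by the combination of control lists that hold them, 1 bar per combination, with filled circles below for the lists that have a peak. The bar for all 4 lists (31220 sites) is followed by that for both Trib1_WT lists only (6178, blue), and the bar for both AAV_Null lists only (2392) is orange.

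How often a peak was found again depended on its strength and on which control was searched. Among autosomal peaks in the strongest 10% of a list, 99.6% to 99.8% were found in the list of the same group and 98.4% to 99.7% in a list of the other. In the weakest 10%, 33.4% to 39.1% were found within the group and 19.1% to 46.4% across. The groups were not symmetric in this. Trib1_WT peaks were found less often in AAV_Null lists than in the other Trib1_WT list in every strength class. For AAV_Null peaks no such order held in every class, and the Trib1_WT lists searched are longer. Peak positions differed little: at common sites the midpoints lay a median of 11 bp apart within Trib1_WT, 13 bp within AAV_Null and 11 to 14 bp between the groups.

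**Figure D3:**
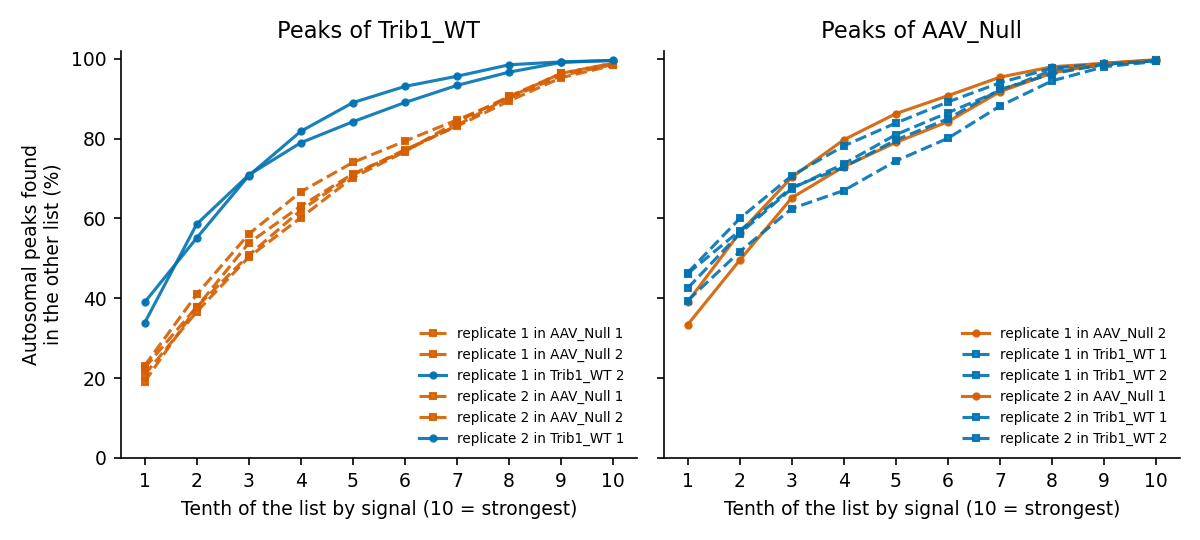
Percent of autosomal peaks of a list that overlap a peak of another list (vertical axis) by strength class of 10% of the list (horizontal axis, 10 is the strongest), for peaks of Trib1_WT (left) and AAV_Null (right), 1 line per pair of lists. Solid lines with circles are lists of the same group and dashed lines with squares lists of the other group. On the left the dashed lines run below the solid ones, and on the right they intermingle.

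Replicates agreed better with each other than with the other control, in membership and in rank. The Jaccard index, sites in both lists divided by sites in either, was 0.691 for the Trib1_WT pair and 0.658 for the AAV_Null pair. For the 4 pairs across the groups it was 0.588, 0.567, 0.603 and 0.603 (mean 0.590 ± 0.017, SD). Ranks were compared at the 31220 common sites after ranking these sites anew in each list. Spearman's rho across sites was 0.952 within Trib1_WT and 0.917 within AAV_Null. Across the groups it was 0.847 and 0.812 for Trib1_WT replicate 1 with AAV_Null replicates 1 and 2, and 0.860 and 0.845 for Trib1_WT replicate 2. Sites are not independent replicates and share library depth, so no p is given. A common site moved by a median of 4.94 percentile points within Trib1_WT, 6.19 within AAV_Null and 7.89 to 9.22 between the groups. The strongest 10% of common sites overlapped by 86.7% within Trib1_WT (as a share of the replicate 1 set) and 83.1% within AAV_Null, against 72.1% to 74.3% across the groups, and 1972 sites were in the strongest 10% of all 4 lists.

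The groups' percentiles did not overlap at 56.5% of the common sites. With 2 lists against 2, percentiles in random order would not overlap at a share of 0.33 of the sites, counting both directions. Both Trib1_WT percentiles were above both AAV_Null percentiles at 8122 sites (26%), and both below at 9510 (30.5%). With a minimum gap of 20 points the balance turned towards Trib1_WT. At 1217 sites (3.9%) both Trib1_WT percentiles exceeded both AAV_Null percentiles by 20 points or more, and at 763 (2.44%) the reverse held. The largest gap was at chromosome 1 from 68054888 to 68055136. This site had 135 and 178 tags in Trib1_WT and 9 and 13 in AAV_Null, which put it at percentiles of 91.4 and 87.0 among common sites in the former and 0.2 and 2.3 in the latter. The next were chromosome 10 from 47302305 to 47302549 (81.6 and 84.3 against 2.0 and 4.3) and chromosome 9 from 106032689 to 106032922 (90.7 and 93.4 against 16 and 4.3). In the other direction the largest gap was at chromosome 6 from 145448136 to 145448344, with 85 and 105 tags in AAV_Null and 20 and 31 in Trib1_WT (percentiles of 79.2 and 78.1 against 12.7 and 9.7). It was followed by chromosome 15 from 44548929 to 44549161 (86.7 and 89.0 against 23.7 and 23.8) and chromosome 5 from 146403779 to 146404185 (68.4 and 68.9 against 12.7 and 13). The chromosome 5 site is 407 bp wide and peaks are 200 bp, so its outermost peaks do not overlap each other. Its gap may therefore compare neighbouring peaks. Without Trib1_WT replicate 2 the gap is asked of fewer lists, and 2018 sites ranked higher in Trib1_WT by 20 points or more and 1583 in AAV_Null.

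The treated lists, which had no part in choosing these sites, were read at them. At the 1217 sites ranked higher in Trib1_WT, the median percentile in the full list was 77.9 and 79.0 in Trib1_LSKO and 73.4 and 79.2 in AAV_Cebpa, against 79.5 and 78.7 in Trib1_WT and 42.3 and 39.8 in AAV_Null. At the 763 sites ranked higher in AAV_Null it was 53.0 and 52.6 in Trib1_LSKO and 62.4 and 66.0 in AAV_Cebpa, against 43.6 and 46.4 in Trib1_WT and 70.4 and 73.0 in AAV_Null. Over all 31220 common sites the medians were 67.8 and 68.6 in Trib1_LSKO and 71.3 and 74.9 in AAV_Cebpa. The medians cover only sites that a treated list holds, 82.6% to 99.3% of the sites in these 2 sets. The lists of both treated groups lay nearer to Trib1_WT than to AAV_Null at the first set of sites and between the controls at the second. At the first set the AAV_Cebpa medians were little above those of the same lists over all common sites. The sites were chosen for a gap between the controls, so these positions are a description.

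Sites particular to one control were more numerous in Trib1_WT. A peak in both Trib1_WT lists and in neither AAV_Null list was found at 6178 autosomal sites, 8.36% of all (95% Wilson interval 8.16% to 8.56%). The reverse was found at 2392 sites, 3.24% (3.11% to 3.37%). The ratio of these counts was 2.58, and both directions together made up 11.6% of the sites. As a share of the sites called in both lists of their group, they were 14.3% in Trib1_WT and 6.47% in AAV_Null. With all lists cut to the length of the shortest, the counts were 4249 and 3028, and the share of sites particular to either control was 11.1%. Thinning the tags to the depth of the shallowest library gave 5541 and 2550. With 1 library left out, the definition asks for fewer peaks and the counts rise. Sites particular to Trib1_WT then numbered 11684 and 12305 without Trib1_WT replicate 1 and 2, and 9005 and 9145 without AAV_Null replicate 1 and 2. Sites particular to AAV_Null numbered 3530 and 4611 without Trib1_WT replicate 1 and 2, and 7793 and 6110 without AAV_Null replicate 1 and 2. More sites were particular to Trib1_WT than to AAV_Null in each of these settings.

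Particular sites came mostly from the weak end of the lists. Those of Trib1_WT had a median percentile of 30.3 in replicate 1 and 27.2 in replicate 2, with 19 and 29 tags. Those of AAV_Null had medians of 26.9 and 29.4, with 17 and 22 tags. Common sites had medians of 67.9 and 68.7 in Trib1_WT, and of 64.2 and 66.3 in AAV_Null. Among the sites called in both Trib1_WT lists, 37.5% of the weakest 20% were particular to Trib1_WT and 0.997% of the strongest 20%. For AAV_Null these shares were 18.2% and 0.257%. Without Trib1_WT replicate 2 they were 58.8% and 1.71% for Trib1_WT, and 31.9% and 0.582% for AAV_Null. Both lists of the group ranked 1149 of the Trib1_WT sites (18.6%) and 295 of the AAV_Null sites (12.3%) in their strongest 50%.

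The strongest particular sites often lay beside a peak of the other control. The first of Trib1_WT was on chromosome 2 from 172949634 to 172949874 (percentiles of 99.3 and 99.4, 205 and 280 tags). The first of AAV_Null was on chromosome 2 from 172949919 to 172950121 (99.6 and 99.5, 230 and 253 tags), so the leading sites of both controls were neighbours. Trib1_LSKO had a peak at the former in both lists, at percentiles of 98.0 and 99.5, and at the latter in none. In AAV_Cebpa, replicate 1 had a peak at the latter and replicate 2 at the former. Over all particular sites, a peak of the other control lay within 500 bp at 389 of those of Trib1_WT (6.30%) and 248 of those of AAV_Null (10.4%). Among the sites in the strongest 10% of both lists, it did so at 10 of 24 in Trib1_WT and at 3 of 4 in AAV_Null. Whether such neighbours are separate binding sites or 1 site called at shifted positions was not tested.

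Of the 5 leading sites of each control, 2 of Trib1_WT and 1 of AAV_Null had no such neighbour. Those of Trib1_WT were both on chromosome 15. At 24999562 to 24999767 the percentiles were 97.3 and 96.5 in Trib1_WT, 99.0 and 98.9 in Trib1_LSKO and 82.0 and 87.7 in AAV_Cebpa, and the nearest AAV_Null peak was 403575 bp away. At 4787242 to 4787460 they were 97.9 and 95.8 in Trib1_WT, 89.8 and 87.5 in Trib1_LSKO and 52.4 and 49.2 in AAV_Cebpa. That of AAV_Null was on chromosome 7 from 27724417 to 27724617. It was at percentiles of 98.2 and 98.1 in AAV_Null and 97.8 and 96.8 in AAV_Cebpa, and no Trib1_WT or Trib1_LSKO list held it. The remaining leading sites of Trib1_WT were chromosome 15 from 85062719 to 85062924 (mean percentile 97.5, in every treated list) and chromosome 13 from 35108176 to 35108417 (96.5, in no treated list). Those of AAV_Null were chromosome 13 from 53071665 to 53071874 (94.4, in no treated list), chromosome 13 from 6059186 to 6059400 (93.2, in AAV_Cebpa replicate 1 only) and chromosome 3 from 130317441 to 130317645 (91.0, in AAV_Cebpa replicate 2 only). Both Trib1_LSKO lists held 4 of the 5 leading Trib1_WT sites, and both AAV_Cebpa lists held 3. Of the 5 of AAV_Null, both AAV_Cebpa lists held 1 and no Trib1_LSKO list held any.

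Of the 3 windows of the genome with the highest share of sites particular to AAV_Null, 2 were on chromosome 7. Windows of 5 Mb were compared where at least 50 sites were called in both lists of either control, which left 397 windows. The share of these sites that was particular to AAV_Null had a median of 4.48% (interquartile range 3.15% to 6.11%). It was highest on chromosome 7 from 25 to 30 Mb, with 39 of 199 sites (19.6%, 95% Wilson interval 14.7% to 25.7%), the window that holds the strong site at 27724417. The next were chromosome 7 from 10 to 15 Mb, with 9 of 52 (17.3%), and chromosome 1 from 195 Mb to its end, with 9 of 62 (14.5%). The 9 sites of the former spanned 14136353 to 14791711. In 13 windows more sites were particular to AAV_Null than to Trib1_WT, and in 377 fewer. Chromosome 7 as a whole had the highest share of the 19 autosomes, 8.12% of the sites called in both AAV_Null lists, against a median of 6.40%, and held 166 of the 2392 sites. Of these 166, 39 were those of the window from 25 to 30 Mb, and the share without them was not computed. Chromosomes 2 and 14 followed with 7.50% and 7.45%. Without Trib1_WT replicate 2 the share in the window from 25 to 30 Mb was 20.0%. Over all autosomal sites called in every remaining list of either control it was then 8.12%, against 4.89% with that library.

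The treated lists at the 39 AAV_Null sites in that first window differed by experiment. They were called at 61.5% and 66.7% of them in AAV_Cebpa and at 15.4% and 25.6% in Trib1_LSKO. For all autosomal sites particular to AAV_Null the shares were 30.6% and 43.3% in AAV_Cebpa and 23.2% and 27.7% in Trib1_LSKO. Over all 109932 autosomal sites of the 8 lists they were 52.6% and 70.8% in AAV_Cebpa and 44.6% and 47.2% in Trib1_LSKO. AAV_Cebpa was thus the higher there too, but that set includes sites called in treated lists alone, so its shares follow list length. The window was picked as the highest of 397, so its share is a description.

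The windows richest in sites particular to Trib1_WT were on other chromosomes or in other parts of them. The share in all windows had a median of 12.1% (interquartile range 9.40% to 15.7%). The highest shares were on chromosome 15 from 0 to 5 Mb with 23 of 76 sites (30.3%, 95% Wilson interval 21.1% to 41.3%), chromosome 6 from 100 to 105 Mb with 14 of 51 (27.5%) and chromosome 1 from 5 to 10 Mb with 18 of 67 (26.9%). The 23 sites on chromosome 15 lay between 3209144 and 4787460, and include the strong site at 4787242. They were called at 87.0% and 78.3% in Trib1_LSKO and at 56.5% and 69.6% in AAV_Cebpa. At the 14 sites of the chromosome 6 window the shares were 64.3% and 50% in Trib1_LSKO and 50% and 42.9% in AAV_Cebpa. At the 18 of the chromosome 1 window they were 44.4% and 50% against 38.9% and 55.6%, which overlapped. For all autosomal sites particular to Trib1_WT they were 61.1% and 65.6% in Trib1_LSKO and 44.7% and 56.8% in AAV_Cebpa. These windows were picked as the highest of 397, so their shares are a description. Without Trib1_WT replicate 2 the share in the chromosome 15 window was 39.3%, against 21.7% over all such autosomal sites (30.3% and 12.6% with it).

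Sites particular to a control on the autosomes were also read in each treated library. The reading used sites joined over all 8 lists, which left 6171 sites particular to Trib1_WT and 2388 particular to AAV_Null. Trib1_LSKO shares the flox/flox line, the vector dose and the presence of chromosome Y peaks with Trib1_WT. Sites particular to Trib1_WT were called at 61.1% and 65.6% in Trib1_LSKO and at 44.7% and 56.8% in AAV_Cebpa. Those of AAV_Null were called at 23.2% and 27.7% in Trib1_LSKO and at 30.6% and 43.3% in AAV_Cebpa. In both sets each library of the matching experiment lay above each library of the other (p = 0.33 for each set, exact two-sided permutation test). Over all 109932 autosomal sites of the 8 lists, AAV_Cebpa was also the higher, at 52.6% and 70.8% against 44.6% and 47.2% in Trib1_LSKO. Its shares at AAV_Null sites lay below these. That set includes sites called in treated lists alone, so its shares follow list length. They do not measure how often sites chosen on control lists are found. The order of the treated groups at the particular sites depended on Trib1_WT replicates. Without replicate 2, sites of Trib1_WT were called at 43.4% and 45.8% in Trib1_LSKO and at 37.3% and 47.9% in AAV_Cebpa, and sites of AAV_Null at 32.4% and 41.6% in Trib1_LSKO and at 36.1% and 48.7% in AAV_Cebpa, so the groups overlapped in both sets. Without replicate 1, sites of Trib1_WT were called at 43.6% and 47.4% in Trib1_LSKO and at 35.3% and 47.1% in AAV_Cebpa, which overlapped too, and sites of AAV_Null did not overlap. Leaving out an AAV_Null library kept the groups apart in both sets. The AAV_Cebpa lists are longer, with 59564 and 80394 peaks against 50075 and 53072 in Trib1_LSKO. With all lists cut to equal length, sites of AAV_Null were called at a mean of 23.2% in AAV_Cebpa and 23.8% in Trib1_LSKO, so the higher share in AAV_Cebpa was not kept. Sites of Trib1_WT were then called at 40.6% in AAV_Cebpa and 66.2% in Trib1_LSKO.

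Taking the difference between these shares inside a library sets list length aside in part. A Trib1_LSKO library held sites of Trib1_WT more often than sites of AAV_Null by 37.9 percentage points in both replicates. For AAV_Cebpa the difference was 14.1 and 13.5 points. The groups differed by 24.1 points (p = 0.33, exact two-sided permutation test). Without Trib1_WT replicate 2 the differences were 11 and 4.20 points in Trib1_LSKO and 1.17 and -0.81 in AAV_Cebpa, and without Trib1_WT replicate 1 they were 12.7 and 12.3 against -0.70 and -1.09. Of the sites particular to AAV_Null, 1003 (42.0%) had no peak in any treated list, against 1076 (17.4%) of those particular to Trib1_WT. Sites in all 4 control lists were called at 90.5% and 94.2% in Trib1_LSKO and 81.8% and 87.8% in AAV_Cebpa.

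**Figure D4:**
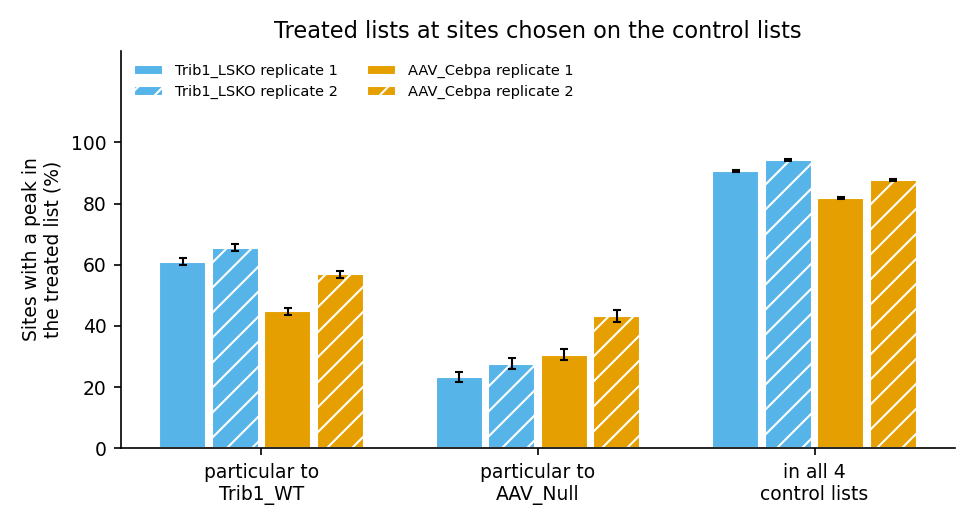
Percent of autosomal sites with a peak in each treated list (vertical axis), for sites particular to Trib1_WT (n = 6171), particular to AAV_Null (n = 2388) and called in all 4 control lists (n = 31274), with 95% Wilson intervals for counting of sites. Trib1_LSKO stands highest at Trib1_WT sites (61.1% and 65.6%) and lowest at AAV_Null sites (23.2% and 27.7%).

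As a yardstick, the same rule was applied to each treated group and its own control, with sites joined over the 4 lists concerned. The share of autosomal sites particular to either group was 11.6% between the controls (95% Wilson interval 11.4% to 11.8%), 9.59% between Trib1_LSKO and Trib1_WT (9.38% to 9.81%) and 28.1% between AAV_Cebpa and AAV_Null (27.8% to 28.4%). These comparisons share control libraries and are set side by side only. The 2 empty-vector controls thus differed at 8570 sites and the Trib1-targeted livers from their own control at 7067. The controls differ in genotype, vector dose, experiment and chromosome Y signal. Trib1_LSKO and Trib1_WT share the flox/flox genotype, the dose, the experiment and the presence of Y signal. The share between the controls is therefore not a measure of variation between like groups. By direction, 4.84% of sites were particular to Trib1_WT and 4.75% to Trib1_LSKO, and 6.11% were particular to AAV_Null and 22% to AAV_Cebpa. The share between the controls was the higher of the first 2 with an overlap of 100 bp (11.5% against 9.54%), with windows of 400 bp (11.4% against 9.50%), in the strongest 50% of each list (13.2% against 12.2%), with lists of equal length (11.1% against 10.0%), after thinning (11.2% against 9.67%) and with a signal of at least 10 (11.6% against 10.5%). The equal length was set in each comparison by its shortest list, 46348 peaks between the controls and 50075 between Trib1_LSKO and Trib1_WT. Leaving out 1 library gave 22.4% and 24.7% between the controls without Trib1_WT replicate 1 and 2, and 23.9% and 22.2% without AAV_Null replicate 1 and 2. It gave 21.0% and 21.1% between Trib1_LSKO and Trib1_WT without Trib1_WT replicate 1 and 2, and 18.4% and 20.8% without Trib1_LSKO replicate 1 and 2. For AAV_Cebpa the shares were 39.0% and 37.6% without AAV_Null replicate 1 and 2, and 48.0% and 41.2% without AAV_Cebpa replicate 1 and 2. Whether the shares differ beyond the variation between animals was not tested.

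Ranks at common sites did not separate the first 2 comparisons. Between the controls the mean rho was 0.841 ± 0.021 (SD over 4 library pairs, range 0.812 to 0.860). Between Trib1_LSKO and Trib1_WT, at their 34105 common autosomal sites, it was 0.842 ± 0.026 (0.811 to 0.864), so these ranges overlapped. Between AAV_Cebpa and AAV_Null, at 26992 sites, it was 0.658 ± 0.030 (0.620 to 0.692), below every pair of the other comparisons. The median shift of a common site was 8.47 percentile points between the controls, 8.36 between Trib1_LSKO and Trib1_WT and 13.2 between AAV_Cebpa and AAV_Null. The share of particular sites in the strongest 50% of both lists of their group was 18.6% for Trib1_WT and 12.3% for AAV_Null between the controls, 12.0% for Trib1_WT and 15.5% for Trib1_LSKO in the first experiment, and 24.2% for AAV_Null and 32.1% for AAV_Cebpa in the second.

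**Figure D5:**
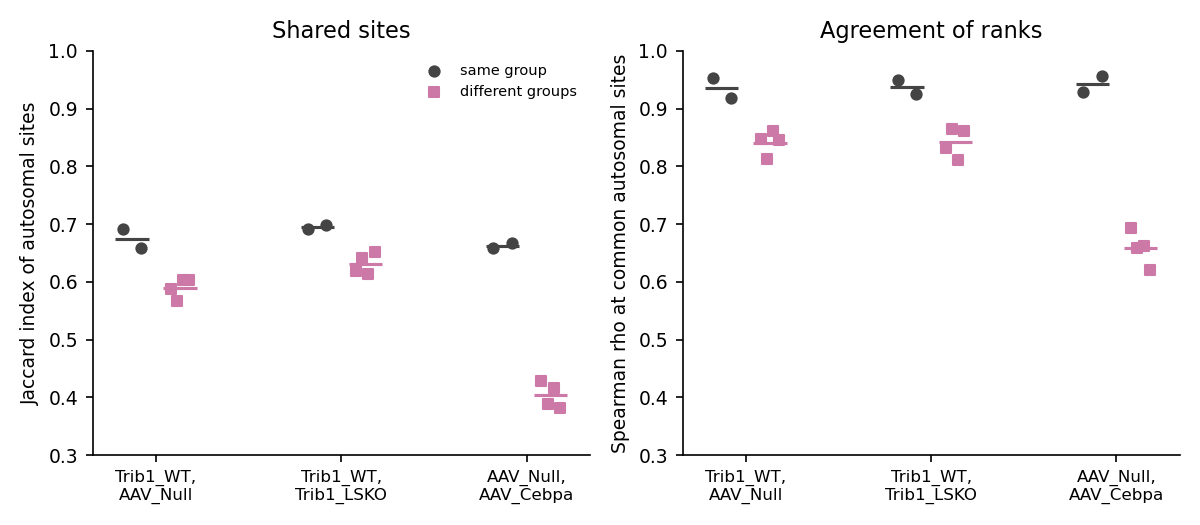
Jaccard index of autosomal sites (left) and Spearman's rho of percentiles at common autosomal sites (right) for each pair of libraries, with lists of the same group (circles) and of different groups (squares) and a line at each mean. The vertical axes start at 0.3. The squares of the 2 controls lie below those of Trib1_LSKO with Trib1_WT on the left (0.567 to 0.603 against 0.614 to 0.652) and beside them on the right, and those of AAV_Cebpa with AAV_Null are the lowest.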

How the data were processed

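The authors deposited 1 peak list per library, each line a position and 1 signal value, with no header. The submitters' processing notes name Bowtie, HOMER and build mm9, without versions, input, thresholds or duplicate handling. Every peak was 200 bp wide. In each list at least 99.97% of the deposited signal values were whole multiples of 1 step, within 0.051, and the inverse of the step was taken as relative depth. Tag counts are signal values divided by this step and rounded, so they are inferred. They are printed for several lists without scaling for depth, and thinning used them. Otherwise signal values were used only inside a list, as ranks or thresholds. Sites, Jaccard indices and Spearman's rho were computed in Python 3.11.15 (pandas 2.3.3, scipy 1.17.1), and the code was tested on simulated lists. Library values were compared by exact two-sided permutation tests, which cannot go below 0.33, and shares of sites have 95% Wilson intervals. Single sites were not tested.

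The members and rules were chosen with earlier results of these data known. Named are the 5 strongest common sites, the 5 strongest sites particular to each control, the 3 common sites with the largest rank gap in each direction and the 3 windows of 5 Mb with the highest share particular to each control. The 20-point gap, the 500 bp rule, values of ranks, windows, strength and treated lists without a control library, thinning (at least 8 tags kept) and the signal minimum of 10 for sites were chosen after seeing the data. Motifs, genes and sequences had been planned and need build mm9, which was not used here.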

Additional observations from a re-analysis of the deposited data

How the results depend on the processing

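The 25 results were recomputed under alternatives, which gave 144 values. Of these, 100 stayed near the main value (for most within 1.5 times a count or 1 SD) and 44 moved further. Only the difference in peak number was checked for a change of sign, and its sign held. The differences inside treated libraries were not among these values. For AAV_Cebpa they were -0.70 and -1.09 points without Trib1_WT replicate 1, and 1.17 and -0.81 without replicate 2. The order of the treated groups at AAV_Null sites turned with lists of equal length (23.2% in AAV_Cebpa and 23.8% in Trib1_LSKO, against 37.0% and 25.4%). In the strongest 50% of each list, sites particular to Trib1_WT numbered 3321, those particular to AAV_Null 1143 and common sites 17547, since fewer peaks enter. The Jaccard index was then 0.658 between the groups, 0.792 within Trib1_WT and 0.742 within AAV_Null, and rho was 0.784 between the groups and 0.886 within AAV_Null. The yardstick counts under this setting were 4464, 4193 and 14276. When a peak had to be in the strongest 50% of its own list and missing from the whole of the others, 1149 and 295 sites were particular to Trib1_WT and AAV_Null. With lists of equal length the Jaccard index was 0.618 between the groups and 0.738 within Trib1_WT, and AAV_Cebpa held 40.6% and 23.2% of the sites particular to Trib1_WT and AAV_Null. Leaving out 1 library gave 9005 to 12305 sites particular to Trib1_WT and 3530 to 7793 particular to AAV_Null. Yardstick counts then ran from 15214 to 16916 between the controls, 12867 to 14516 for Trib1_LSKO and 32887 to 45631 for AAV_Cebpa, and the difference in autosomal peak number from 4958.5 to 7567.5. Common sites numbered 32327 to 34129. Sites of Trib1_WT were then called at a mean of 44.6% to 66.6% in Trib1_LSKO and 41.2% to 55.4% in AAV_Cebpa, and sites of AAV_Null at 15.8% to 37.0% and 25.3% to 42.4%. The replicate block, which counts a site only where both same-numbered pairs differ, gave 6178 and 2392 sites and a difference of 6263 peaks, equal to the main values by construction. Deviations of same-numbered libraries from their group mean had r = 0.16 over common sites, and with 2 numbers and no label that pairs them the libraries share only a number. Limiting factors are the 2 libraries per group, the unequal depth and the lists' unknown thresholds. Motif shares were not run.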
